A study of Mus musculus with 8 samples.

Results

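The cells described here are CD8 T cells of a mouse liver tumour that carried a high value of Xcl1, the gene of the chemokine lymphotactin, and were neither cycling nor high in granzymes C to F. A CD8 T cell was a cell whose mean deposited value of Cd8a and Cd8b1, the chains of the CD8 coreceptor, was at least 0.8, as was its mean of the T cell receptor complex genes Cd3d, Cd3g and Trbc2, with Cd4 below 0.5 and a mean of the macrophage genes C1qa and C1qb below 0.8. The Xcl1-high cells were those CD8 T cells with Xcl1 of at least 1.5, a mean of the cell cycle genes Pclaf, Rrm2, Ube2c and Cenpf below 0.8, and a mean of Gzmc, Gzmd, Gzme and Gzmf below 1. They were 761 of 9973 CD8 T cells and of 53528 cells in all. The other 9212 CD8 T cells served as the comparison, and within them the 6178 that met the same cycling and granzyme limits but had Xcl1 below 1.5, called matched CD8 T cells here. Since measured values chose the Xcl1-high cells, their Xcl1, CD8, Cd4, C1q, receptor complex, cycling and granzyme C to F values are a description and no finding.

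Tumours of Hepa1-6, a mouse hepatoma cell line, were dissociated, and the 3′ ends of RNA from single cells were sequenced after droplet capture with the DNBelab C kit. The labels give 4 groups: WT tumours with intraperitoneal PBS, WT tumours with intraperitoneal PD1 antibody, and Soat1-edited tumours with either agent, where the titles say Soat1KO and the genotype field says Soat1 knockdown. Strain, age, dose, clone number and animals per group are not stated in the labels, and all 4 groups carry the same cell line. The deposited values form a single pooled table whose cell names carry a final number, 1 to 6. The 6 sets so marked are tied to none of the 4 groups, so genotypes and treatments were not compared, and every value is given per set or as the lowest, median and highest over the sets.

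Lymphotactin is made by activated CD8 T cells and NK cells, and its receptor Xcr1 sits on the dendritic cells that present antigen to CD8 T cells. In long-lasting infections and tumours, Xcl1 transcripts are known from CD8 T cells that keep the capacity to divide and hold little granzyme B or Havcr2, the inhibitory receptor TIM-3. The genes most used to define that state, such as Tcf7 and Slamf6, are not among the 2000 genes with deposited values. They could therefore not be examined here.

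Values of set 1 were the natural log of 1 plus the UMIs (unique molecular identifiers, counts of captured RNA molecules) per 10000 UMIs of the cell, and whole UMI counts could be recovered for all of its 9370 cells, whose totals ran from 1001 to 261833. In sets 2 to 6 a further, unrecorded step had altered the values, every cell held values below 0, and the step may have made the sets more alike. Differences in those sets are therefore differences of deposited values, not of expression, and the sets are not independent of each other. In set 1 the median UMI total was 3811 in Xcl1-high cells, 4093 in matched CD8 T cells, 5433 in all other CD8 T cells and 19031 in hepatoma-type cells. Cell names hold running numbers, so barcodes shared between sets could not be counted. With 1 pooled sample there was no test, and intervals below are 95% intervals that cover counting error only.

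Xcl1-high cells were present in all 6 sets, as 131 of 1052 CD8 T cells in set 1, 92 of 1323 in set 2, 182 of 1901 in set 3, 111 of 1913 in set 4, 117 of 1318 in set 5 and 128 of 2466 in set 6. Their share of CD8 T cells was 12.5%, 6.95%, 9.57%, 5.80%, 8.88% and 5.19% in sets 1 to 6. Set 1 was highest and set 6 lowest, and the exact binomial intervals of these sets, 10.5% to 14.6% and 4.35% to 6.14%, did not overlap. The same thresholds were applied to set 1 and to the altered values of sets 2 to 6. The part of that alteration in these shares was not tested. Over all sets the share was 7.63% (7.12% to 8.17%), which is 1.42% of all cells and between 1.22% and 1.54% in each set. The share of all cells thus varied less between sets than the share of CD8 T cells, whose number varied from 1052 to 2466.

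**Figure D1:**
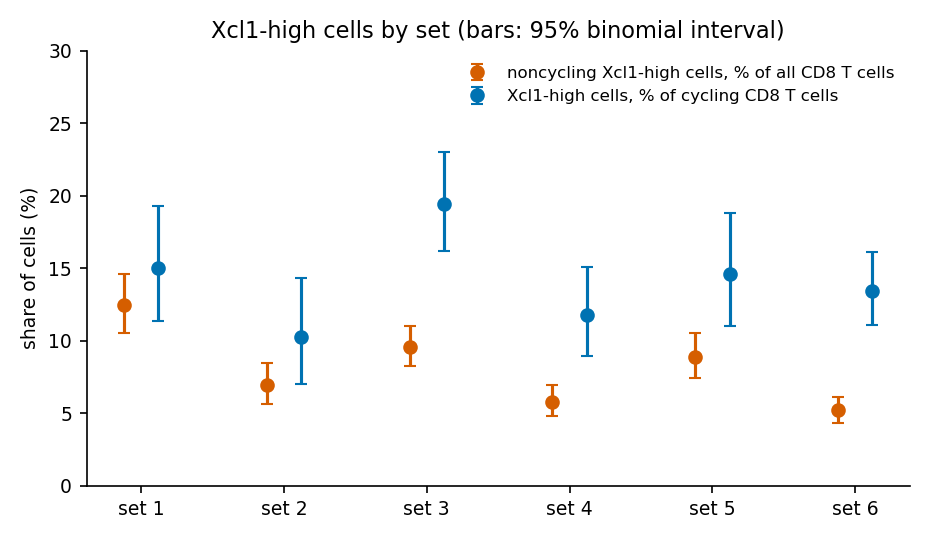
Share of cells in each set with a 95% exact binomial interval: noncycling Xcl1-high cells as a percentage of all CD8 T cells (orange) and Xcl1-high cells as a percentage of cycling CD8 T cells (blue). The orange points run from 5.19% in set 6 to 12.5% in set 1, and the blue points from 10.3% in set 2 to 19.4% in set 3.

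Among the members Xcl1 ran from 1.51 to 6.43, with a median of 2.35. The threshold cut through a continuous range: 41 members lay between 1.5 and 1.6, the lowest at 1.51, and 35 otherwise eligible cells lay between 1.4 and 1.5, the highest at 1.499. In set 1 the 131 members held 1034 Xcl1 UMIs, from 1 to 132 per cell with a median of 4. There, 26 members (19.8%) held 1 Xcl1 UMI each and passed because their totals were small, at most 2816 UMIs. At the other end, 26 members held 10 or more Xcl1 UMIs each and together 65.0% of all Xcl1 UMIs of the members. Among matched cells of set 1, 58 (10.2%) held any Xcl1 UMI, against 2.37% of hepatoma-type cells, which were sequenced more deeply.

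Of the 1152 CD8 T cells with Xcl1 of at least 1.5, 66.1% were members, and the others were nearly all cycling. Of all 9973 CD8 T cells, 6939 lay within the same cycling and granzyme limits. That Xcl1 value was reached by 11.0% of those 6939, with 7.98% to 18.6% by set. It was reached by 14.4% of the 2701 cycling CD8 T cells, with 10.3% to 19.4% by set. The cycling share was the lower one in set 1 and the higher one in the other sets, whose values had been altered. Of the 333 noncycling CD8 T cells high in granzymes C to F, 3 (0.901%) reached that Xcl1 value. Of the 10 classes compared, NK-type cells had the next highest median Xcl1 over the sets, with a mean deposited value of 0.57 to 1.53 by set against 2.44 to 2.75 in the members, and their range overlapped that of cycling CD8 T cells, 0.55 to 0.68. In set 1 this was 904 CPM (the gene's UMIs per 1000000 UMIs summed over the cells; interval 717 to 1126) in the 25 NK-type cells, 265 CPM in cycling CD8 T cells and 141 CPM in 57 Foxp3-low CD4 T cells, of which 5 held an Xcl1 UMI. The 16 granzyme C to F cells of set 1 held 0 Xcl1 UMIs, which allows up to 16.0 CPM. Hepatoma-type cells had 0.900 CPM and C1q macrophages 3.32 CPM.

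**Figure D2:**
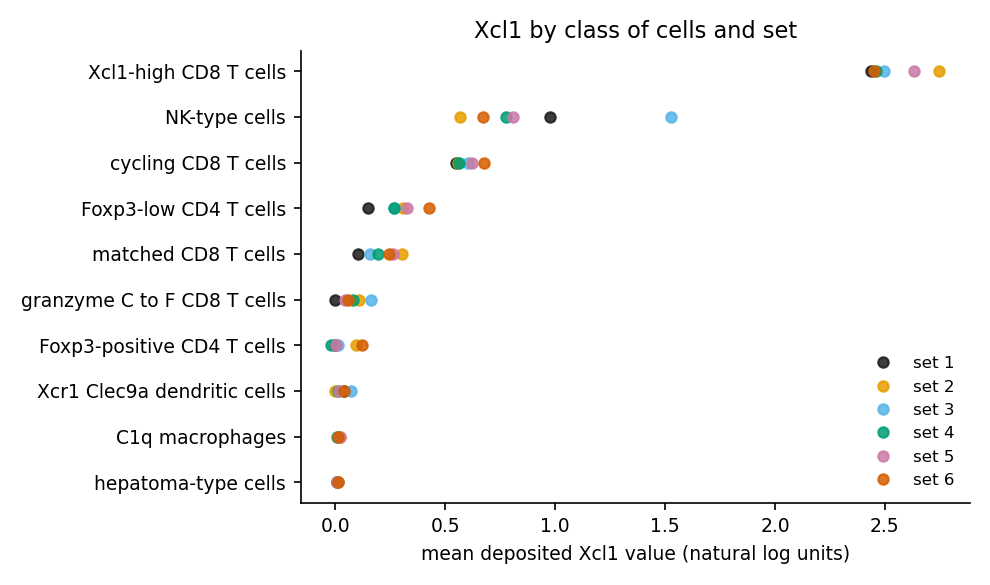
Mean deposited Xcl1 value (natural log units) of each class of cells, 1 point per set. The Xcl1-high CD8 T cells lie between 2.44 and 2.75 because the rule chose them on Xcl1, the NK-type cells between 0.57 and 1.53, and the hepatoma-type cells close to 0.

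Markers of T cells and of other cell types were then compared. Cd8a, Cd8b1 and Cd4 belong to the rule, so their values describe the selection and do not check the label. Cd8a was 2.08 to 2.29 in the members and 2.04 to 2.14 in other CD8 T cells, and Cd8b1 was 1.67 to 1.83 and 1.61 to 1.80. Trbc1, a T cell receptor constant gene that the rule did not use, was 1.51 to 1.87 in the members and 1.35 to 1.49 in the others, with no overlap, and was also higher than in matched cells in 5 of 6 sets. It was 1 of 2 CD8 T cell markers measured outside the rule. Of the 2, only Trbc1 was higher than in other CD8 T cells in all 6 sets, beside 5.7% of all genes. The 12 NK cell markers summed to 1.42 to 2.33 in the members and 1.73 to 2.08 in other CD8 T cells. In set 1 they summed to 702 CPM in the members, 562 in other and 669 in matched CD8 T cells. Of the 12, Ncr1, Klra4, Klra8 and Khdc1a had 0 UMIs in members of set 1, but Klra8 and Khdc1a were also at 0 in matched cells. Il10 was also at 0 UMIs in these members, as was Cd4, which the rule held below 0.5. The 9 hepatoma markers, led by the liver protein Afp, summed to 3.217 to 3.597 in the members and 3.43 to 3.86 in the others, so tumour RNA was present at a like level in both. A doublet caller marked 1 of the 131 members in set 1, and 91 of its 9370 cells (0.971%). Called doublets were left out of the CPM values, their ratios and the shares of cells with a UMI set against matched cells, and kept in the median UMI totals and in counts over all 131 members.

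Across the 1983 genes that the rule did not use, the members differed from other CD8 T cells by at least 0.25 in the same direction in all 6 sets for 3 higher genes (0.151% of those measured) and 8 lower genes (0.403%). The higher genes were Crtam, Gadd45b and Cd160. The lower genes were Gzmb, Prf1 and Ccl5 and, from the cell cycle list, Hmgb2, Top2a, Mki67, Stmn1 and Birc5. Against matched cells 3 genes were higher (0.151%), namely Crtam, Gadd45b and Il18r1, and 4 were lower (0.202%), namely Gzmb, Prf1, Ccl5 and Fgl2. None of the 5 cell cycle genes passed against matched cells, for which the rule's cycling limit is the same. Hmgb2 was 1.71 to 2.11 in the members, 2.36 to 2.66 in other CD8 T cells and 1.94 to 2.07 in matched cells. Without the size limit, 113 genes (5.7%) were higher and 358 (18.1%) lower than in other CD8 T cells in all 6 sets, and 150 (7.56%) and 151 (7.61%) against matched cells. The median difference over all genes tested was -0.0015 against other and -0.00031 against matched CD8 T cells. Below, ranges over the sets are said to overlap or not, but the share of all genes without overlap was not counted.

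**Figure D3:**
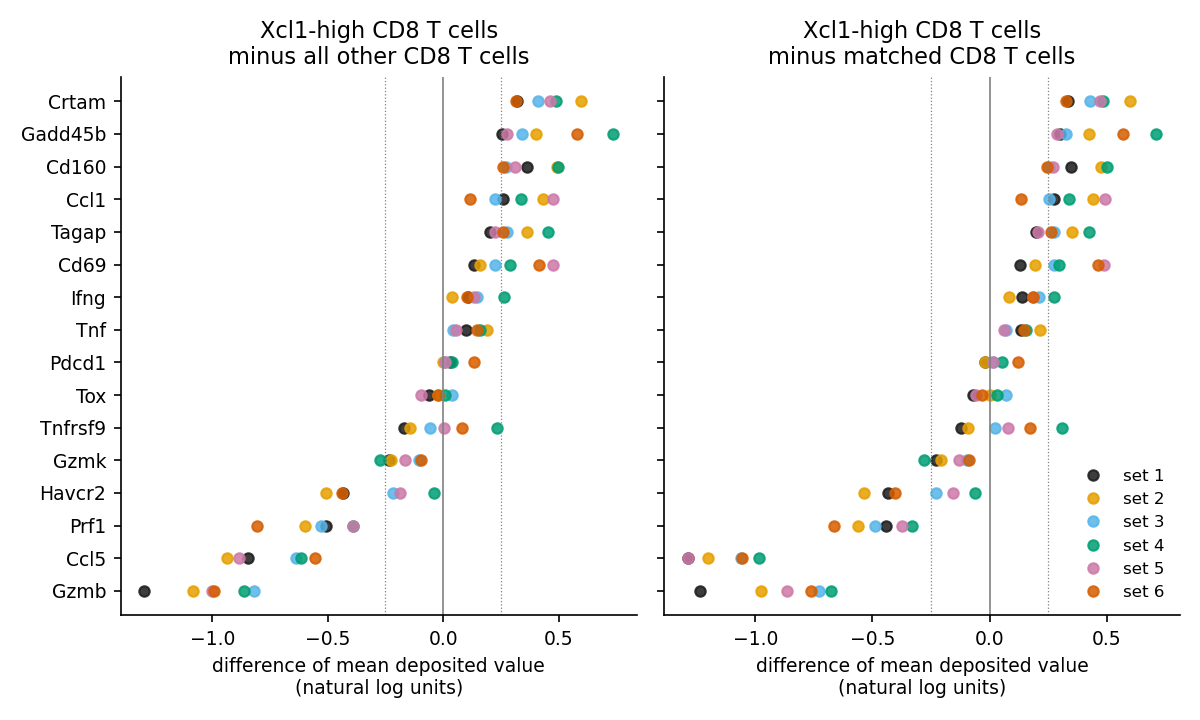
Difference of the mean deposited value (natural log units) between Xcl1-high CD8 T cells and all other CD8 T cells (left) or matched CD8 T cells (right) for 16 genes, 1 point per set, with dotted lines at 0.25 on either side of 0. All points of Crtam, Gadd45b and Cd160 in the left panel lie right of 0.25, all points of Gzmb, Ccl5 and Prf1 lie left of the other dotted line, and those of Pdcd1 and Tox lie around 0.

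Crtam, an adhesion receptor of activated T cells that binds a nectin-like ligand on dendritic and epithelial cells, stood out most on the higher side. Its mean value was 0.50, 0.73, 0.57, 0.60, 0.57 and 0.42 in the members of sets 1 to 6 and 0.18, 0.13, 0.16, 0.11, 0.11 and 0.11 in other CD8 T cells. The lowest set of the members lay above the highest set of the others. The difference was 0.31 to 0.60 by set, and Crtam exceeded a value of 0.5 in 27.5% to 42.3% of members and in 9.7% to 14.0% of the other cells. In set 1 the members held 105 Crtam UMIs, or 161 CPM, which is 4.64 times the level in matched cells (interval 3.49 to 6.19). A Crtam UMI was found in 34.6% of members, 12.9% of matched cells and 1.76% of hepatoma-type cells.

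Cd160, a receptor of the immunoglobulin family that binds the TNF receptor family member HVEM, was 0.76, 0.85, 0.68, 0.83, 0.74 and 0.56 in the members of sets 1 to 6 and 0.40, 0.35, 0.40, 0.34, 0.43 and 0.30 in the others. All 6 values of the members lay above all 6 of the others, and the difference was 0.26 to 0.50. Against matched cells it was 0.24 to 0.50, so that Cd160 missed the limit of 0.25 there in set 6. Its set 1 ratio to matched cells was 1.69 (1.35 to 2.11), with a UMI in 51.5% of members, 30.5% of matched cells and 1.76% of hepatoma-type cells.

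Gadd45b, a stress and growth arrest gene induced by T cell stimulation, was 0.70, 0.77, 0.79, 1.15, 0.67 and 0.96 in the members of sets 1 to 6 and 0.37 to 0.45 in the others. Sets 4 and 6 had the highest values, and the groups did not overlap. Its set 1 ratio to matched cells was 1.74 (1.41 to 2.14). A Gadd45b UMI was found in 44.6% of members, 28.0% of matched cells and 57.6% of the deeper hepatoma-type cells. With each cell thinned to 1000 UMIs the shares were 16.2%, 8.47% and 6.50%. In Foxp3-low and Foxp3-positive CD4 T cells Gadd45b was 0.92 to 1.15 and 0.89 to 1.14. In set 1 these 2 classes had 497 and 502 CPM, against 201 CPM in the members.

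Gzmb, the gene of the killing protease granzyme B, had the largest difference of all genes compared with other CD8 T cells. Its mean value was 0.40, 0.45, 0.67, 0.66, 0.44 and 0.48 in the members of sets 1 to 6 and 1.69, 1.54, 1.49, 1.53, 1.45 and 1.47 in the others, with no overlap. The difference was -1.30 to -0.82 by set, and -1.24 to -0.67 against matched cells, whose granzyme C to F limit was the same. In set 1 the members held 109 Gzmb UMIs, or 167 CPM, against 2944 UMIs, or 1063 CPM, in matched cells, a ratio of 0.16 (0.13 to 0.19). One member cell held 20.2% of those UMIs, and without it the ratio was 0.13. A Gzmb UMI was found in 21.5% of members, 67.0% of matched cells and 11.4% of hepatoma-type cells. After thinning these shares were 10.8%, 46.0% and 0.351%.

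Prf1, the gene of the pore-forming protein perforin, was 1.11, 0.85, 0.96, 1.04, 1.16 and 0.53 in the members of sets 1 to 6 and 1.34 to 1.62 in the others. Set 6 was lowest, and no set of the members reached the range of the others. The set 1 ratio to matched cells was 0.50 (0.44 to 0.57), and 61.5% of members still held a Prf1 UMI, against 74.6% of matched and 8.96% of hepatoma-type cells.

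Of the 12 cytotoxic granule genes measured, 7 were lower and 2 higher than in other CD8 T cells in all 6 sets, beside 18.1% and 5.7% of all genes, with a median difference of -0.133. In set 1, 7 of the 12 had a log2 UMI ratio of at most -0.5 to other CD8 T cells, beside 27.3% of all genes, and 6 of the 12 to matched cells, beside 19.5%. Beside Gzmb and Prf1 the lower genes were Gzmk and Gzmg and the serpin genes Serpinb6b, Serpinb9 and Serpinb9b, whose family includes inhibitors of granzymes. The other CD8 T cells include those high in granzymes C to F, which the rule kept out of the members. Against matched cells, 7 of the 12 were lower and 1 higher in all 6 sets, beside 7.61% and 7.56% of all genes. Gzmg was near the floor, above 0.5 in 0% to 0.855% of members, 0.731% to 2.31% of others and 0% to 0.391% of matched cells. Gzmk, the gene of another granzyme, was 0.09 to 0.24 in the members and 0.28 to 0.37 in the others, without overlap, and its set 1 ratio to matched cells was 0.35 (0.21 to 0.55). Gzma, the gene of granzyme A, had 0 UMIs in the set 1 members and 903 in matched cells. Summed UMIs were at least 70.9-fold lower when 3 counts over the group are taken as the floor. That bound counts UMIs and not cells, and the 903 UMIs lay in 73 of 567 matched cells (12.9%). In the other sets Gzma values were 0.02 to 0.18 in the members and 0.08 to 0.22 in the others, and they overlapped. A Gzma value above 0.5 was less frequent in members than in others in sets 1 to 4. It was more frequent in set 5 (9.40% against 8.99%) and set 6 (10.2% against 7.10%). The higher genes were Ctsw, a lysosomal protease gene of cytotoxic cells, and Srgn, the proteoglycan that packs granule contents. Ctsw was 0.83 to 1.10 in the members and 0.74 to 0.91 in the others, and Srgn 1.76 to 1.94 and 1.65 to 1.77. These ranges overlapped although each set on its own had the higher value in the members.

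Of the 6 lymphocyte chemokines other than Xcl1, Ccl1 and Cxcl10 were higher and Ccl5 and Ccl9 lower in all 6 sets, beside 5.7% and 18.1% of all genes, with a median of -0.154. Ccl5, an attractant for T cells and monocytes, was 1.22, 1.18, 1.47, 1.54, 1.26 and 1.19 in the members of sets 1 to 6 and 1.74 to 2.15 in the others. The groups did not overlap, and against matched cells the difference was larger, -1.29 to -0.99, since cycling CD8 T cells were also low in Ccl5 with 0.85 to 1.44. The set 1 ratio to matched cells was 0.33 (0.30 to 0.36). Ccl3 and Ccl4, which attract macrophages and T cells, were lower in 5 of 6 sets and higher in set 4, where Ccl4 was 1.98 in the members and 1.67 in the others.

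Ccl1, the ligand of the receptor Ccr8, was 0.35, 0.54, 0.30, 0.40, 0.55 and 0.23 in the members of sets 1 to 6 and 0.07 to 0.11 in the others. No set of the members overlapped the others, yet sets 3 and 6 missed the limit of 0.25. In set 1 a Ccl1 UMI was found in 18.5% of members, 4.41% of matched and 1.41% of hepatoma-type cells. One cell held 35.9% of the 156 Ccl1 UMIs of the members, and the ratio to matched cells was 7.27 (5.58 to 9.53) with it and 4.79 without it. Ccl1 was 0.32 to 0.68 in Foxp3-low and 0.00 to 0.14 in Foxp3-positive CD4 T cells. In set 1 the Foxp3-low cells had 346 CPM, against 239 CPM in the members. Cxcl10, an interferon-induced chemokine, was 0.30 to 0.45 in the members and 0.17 to 0.23 in the others. Its share of members with a UMI in set 1, 24.6%, was below the 54.1% of hepatoma-type cells, and after thinning the shares were 13.1% and 7.73%.

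Xcr1, the receptor of Xcl1, was at 0 UMIs in the set 1 members, which allows up to 4.60 CPM, and its mean deposited value was -0.01 to 0.01. Its transcripts were found in the Xcr1 Clec9a dendritic cells of the table, which were selected on that gene.

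**Figure D4:**
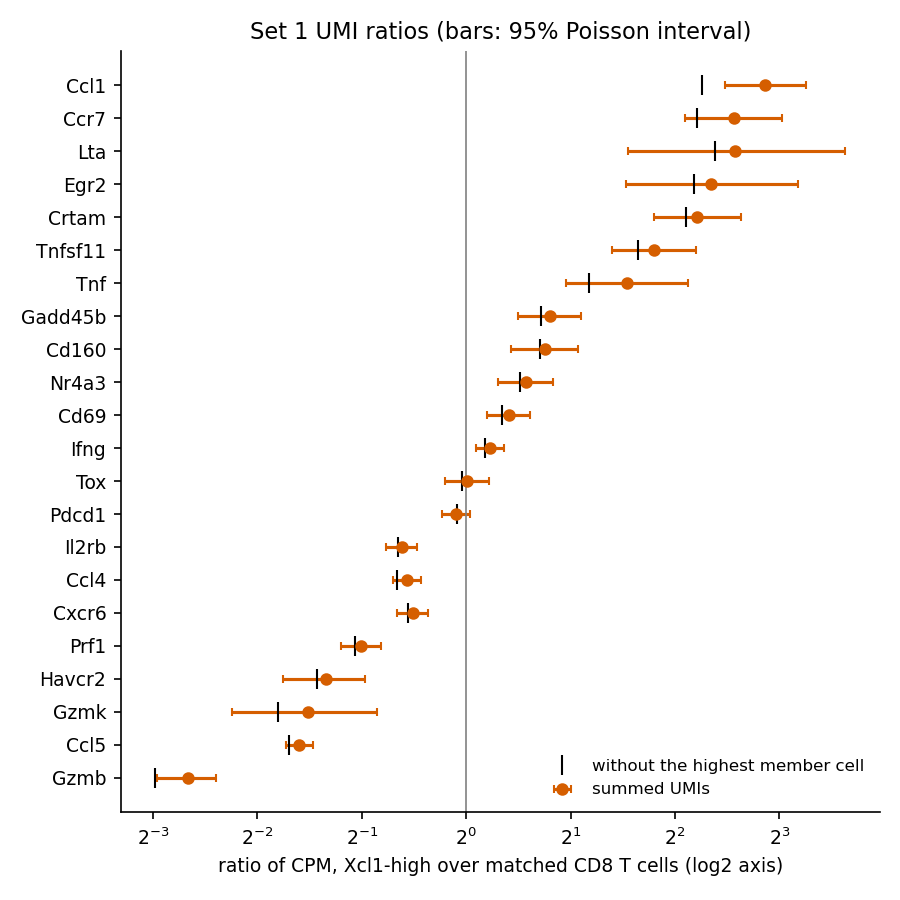
Ratio of CPM between Xcl1-high and matched CD8 T cells of set 1 on a log2 axis, with 95% Poisson intervals (orange) and the ratio without the single member cell that holds the most UMIs of the gene (black tick). Gzmb has the lowest ratio of the genes drawn (0.16) and Ccl1 the highest (7.27, or 4.79 without its highest cell), while Pdcd1 and Tox lie at 0.94 and 1.01.

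Cytokine genes made up the list with the most genes on the higher side. Of 12 cytokines and death ligands measured, 8 were higher and 0 lower than in other CD8 T cells in all 6 sets, beside 5.7% and 18.1% of all genes, with a median of 0.0665. In set 1, 10 of the 12 had a log2 UMI ratio of at least 0.5 to other CD8 T cells, beside 17.3% of all genes, and 8 of the 12 to matched cells, beside 17.8%. The 8 genes higher in all 6 sets were Ifng, Tnf, Lta, Ltb, Csf2, Tnfsf8, Tnfsf9 and Tnfsf11, and all but Ltb were also higher than in matched cells in all sets. The differences were small. Ifng, the gene of interferon gamma, was 1.54 to 1.74 in the members and 1.44 to 1.63 in the others, ranges that overlapped, and its set 1 ratio to matched cells was 1.17 (1.07 to 1.28). The share of cells with Ifng above 0.5 was lower in members than in others in sets 1, 2, 4 and 5, and higher in sets 3 and 6. In set 1 an Ifng UMI was found in 74.6% of members and 78.9% of the deeper other CD8 T cells. After thinning these shares were 45.4% and 43.3%. Tnf was 0.19 to 0.30 in the members and 0.11 to 0.15 in the others, without overlap, with a set 1 ratio of 2.92 (1.94 to 4.35).

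Tnfsf11, the gene of RANK ligand, was 0.44, 0.25, 0.28, 0.40, 0.38 and 0.31 in the members of sets 1 to 6 and 0.11 to 0.18 in the others. The groups did not overlap, and the set 1 ratio to matched cells was 3.49 (2.64 to 4.60), with a UMI in 30.0% of members, 9.88% of matched cells and 0.790% of hepatoma-type cells. Lta, the gene of lymphotoxin alpha, rested on 21 UMIs in the set 1 members and 15 in matched cells, a ratio of 5.94 (2.92 to 12.4). Csf2, the gene of GM-CSF, rested on 14 and 10 UMIs, and 42.9% of the members' UMIs came from 1 cell.

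Of the 13 genes induced by T cell receptor signals, 4 were higher in all 6 sets and 1, Batf, was lower, beside 5.7% and 18.1% of all genes, with a median of 0.0895. The higher genes were the transcription factors Nr4a3, Egr2 and Egr3 and the signalling gene Tagap. Tagap was 0.63, 0.71, 0.62, 0.87, 0.54 and 0.59 in the members of sets 1 to 6 and 0.32 to 0.43 in the others. Egr2 was 0.18 to 0.33 against 0.04 to 0.09. Neither gene overlapped between the groups, and both were above matched cells in every set. Nr4a3 was 0.57 to 1.04 in the members and 0.44 to 0.58 in the others, which overlapped slightly. Its relative Nr4a2 was higher in sets 1 and 3 to 6 and lower in set 2. In set 1 the ratio to matched cells was 5.09 (2.90 to 9.03) for Egr2 and 1.61 (1.27 to 2.02) for Tagap.

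Among 13 costimulatory and activation receptors, 5 were higher and 1 lower in all sets, beside 5.7% and 18.1% of all genes, with a median of 0.01. Beside Crtam the higher genes were Cd28, the main costimulatory receptor, Cd69, an early activation and retention receptor, Cd200, and Klrk1, the gene of the NKG2D receptor. Cd69 was 1.12, 0.99, 1.07, 1.25, 1.33 and 1.24 in the members of sets 1 to 6 and 0.83 to 0.98 in the others, without overlap. The gene that was lower was Il2rb, a chain of the receptor for interleukins 2 and 15, at 1.59 to 1.80 in the members and 1.97 to 2.10 in the others. Tnfrsf9, the costimulatory receptor 4-1BB, was higher in 3 sets and lower in the other 3, from -0.17 in set 1 to 0.23 in set 4.

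Of 8 genes in the list of inhibitory receptors, which includes the transcription factor Tox, 2 were higher (Cd160 and Btla) and 3 lower (Havcr2, Ctla4 and Klrc1) in all 6 sets, beside 5.7% and 18.1% of all genes, with a median of -0.0276. Havcr2 was 0.39, 0.26, 0.56, 0.71, 0.55 and 0.31 in the members of sets 1 to 6 and 0.74 to 0.83 in the others. All sets of the members were below all sets of the others, but in set 4 the difference was only -0.04. In set 1 a Havcr2 UMI was found in 28.5% of members, 53.6% of matched cells and 6.59% of hepatoma-type cells, and the ratio to matched cells was 0.39 (0.30 to 0.51).

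Pdcd1, the gene of the PD-1 receptor, was 1.82 to 1.99 in the members and 1.81 to 1.96 in the others. Its set 1 ratio to matched cells was 0.94 with an interval of 0.85 to 1.03, which includes 1. Tox was 0.95 to 1.07 in the members and 0.97 to 1.10 in the others, with a set 1 ratio of 1.01. The PD1 antibody given to some groups cannot be related to these levels, since the sets are tied to no group.

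Of 9 naive, memory and progenitor genes measured, Ccr7, Il7r and Id3 were higher and Ly6c2 and Eomes lower in all sets, beside 5.7% and 18.1% of all genes, with a median of 0.000949. Ccr7, the homing receptor for lymph nodes, was 0.26, 0.27, 0.24, 0.20, 0.33 and 0.24 in the members of sets 1 to 6 and 0.05 to 0.07 in the others, without overlap. In set 1 its ratio to matched cells was 5.90 (4.29 to 8.17), with a UMI in 14.6% of members, 3.88% of matched and 0.878% of hepatoma-type cells. Il7r, a receptor chain for the survival cytokine interleukin 7, differed by 0.02 to 0.19, and its set 1 ratio of 1.26 had an interval of 0.86 to 1.82.

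Of 10 tissue residency and homing genes, 5 were lower in all sets, among them Itga4, Cxcr6, Ccr2 and Rgs1, and Itgae was higher by at most 0.06, beside 18.1% of all genes lower and 5.7% higher, with a median of -0.0548. In set 1, 2 of the 10 had a log2 UMI ratio to other CD8 T cells of at least 0.5 and 2 of at most -0.5, with a median of -0.019, beside 17.3% and 27.3% of all genes. Cxcr6, a receptor that holds CD8 T cells near dendritic cells in tumours, was 1.54 to 1.80 in the members and 1.83 to 1.96 in the others. These ranges did not overlap, and the set 1 ratio to matched cells was 0.70 (0.63 to 0.77).

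Of 7 immediate early and heat shock genes, Hspa1a, Hspa1b and Hsph1 were higher in all sets and 0 were lower, beside 5.7% and 18.1% of all genes, with a median of 0.114. Hspa1b, an inducible chaperone gene, was 1.80 to 2.17 in the members and 1.55 to 1.74 in the others. These genes also respond to tissue dissociation, and their part in the other differences was not tested. Of 11 interferon response genes 1 was higher (Ifit1) and 1 lower (Gbp4), and of 10 hypoxia and glycolysis genes 0 were higher and 3 lower, beside the same shares of all genes, and 0 of the 10 were lower than matched cells in all sets. Of 23 cell cycle genes outside the rule 22 were lower than in other CD8 T cells and 0 lower than in matched cells.

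The same genes were compared among cycling CD8 T cells, none of which are members, between the 388 with Xcl1 of at least 1.5 and those with less. In all 6 sets 125 genes (6.3%) were higher and 130 (6.56%) lower in the Xcl1-high cycling cells. Crtam was higher by 0.21 to 0.32, Gadd45b by 0.22 to 0.58 and Cd160 by 0.09 to 0.18. Gzmb differed by -1.10 to -0.50, Ccl5 by -0.82 to -0.60 and Prf1 by -0.56 to -0.25. All 6 genes thus lay on the same side in every set as among noncycling cells, although of all genes only Gzmb, Prf1 and Ccl5 passed 0.25 in all sets.

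**Figure D5:**
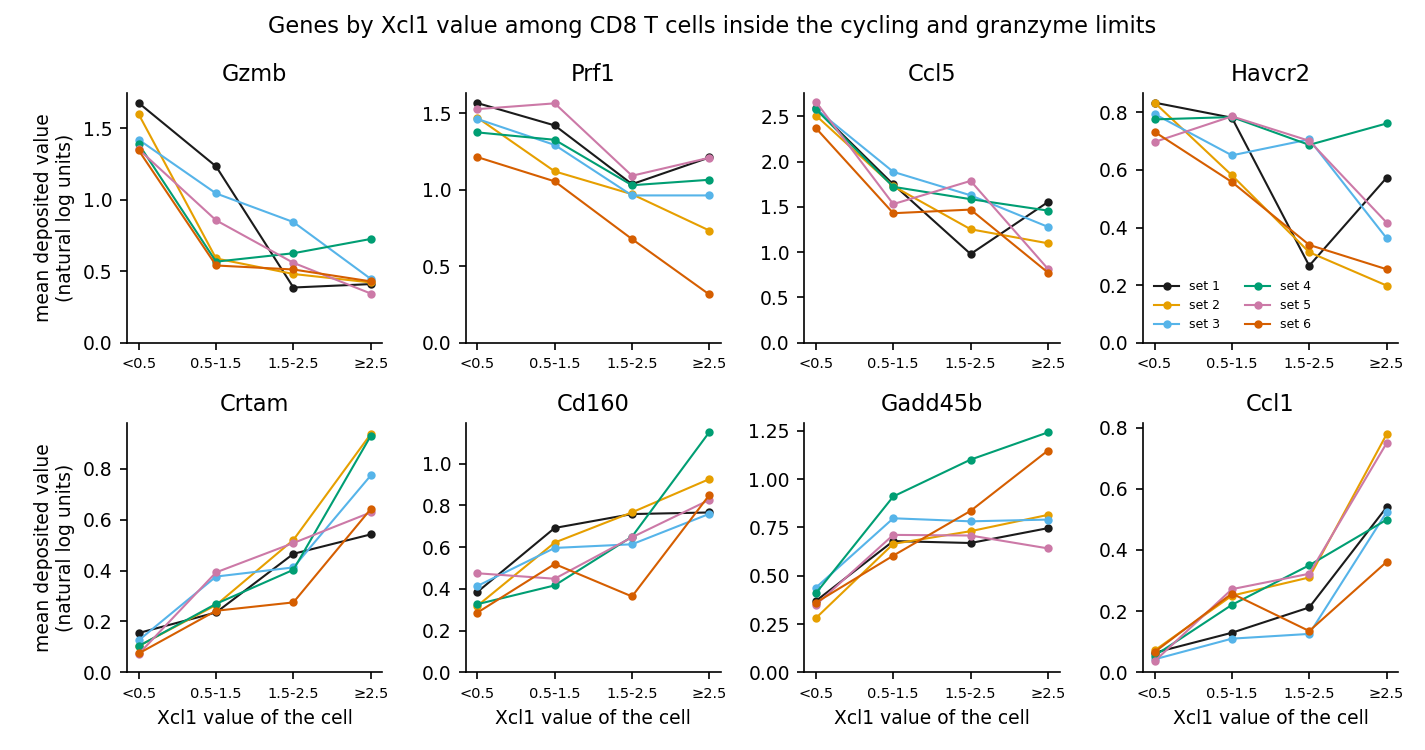
Mean deposited value (natural log units) of 8 genes in CD8 T cells within the cycling and granzyme limits, split by the cell's Xcl1 value into 4 ranges, with 1 line per set. The 2 ranges on the right are the Xcl1-high cells. Crtam climbs from a median of 0.10 over the sets in the lowest range to 0.71 in the highest, and Gzmb falls from 1.41 to 0.43.

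The genes were also followed along the Xcl1 value, over 5551 cells below 0.5, 627 from 0.5 to 1.5, 425 from 1.5 to 2.5 and 336 at 2.5 or more. The median Crtam value over sets in these ranges was 0.10, 0.27, 0.44 and 0.71, and Crtam was higher in the top range than in the one before it in all 6 sets, by 0.08 to 0.53. Ccl1 was 0.06, 0.24, 0.26 and 0.53, and it too was higher in the top range in all sets, by 0.15 to 0.47. Gzmb was 1.41, 0.72, 0.54 and 0.43, and Ccl5 was 2.58, 1.72, 1.53 and 1.19. Most of the Gzmb difference lay between the lowest ranges. Between the top range and the one before it, Gzmb differed by -0.40 to 0.10 and was higher in the top range in sets 1 and 4. The range from 0.5 to 1.5 held deeper cells in set 1, with a median total of 6667 UMIs against 3839 in the lowest range and 3504 in the highest.

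The Xcl1-high cells were not uniform. In set 1, 45 members held a Crtam UMI, 68 a Cd160 UMI and 30 held both. Of the 45 Crtam-positive members 37.8% held a Ccl1 UMI, against 8.14% of the 86 others, though the Crtam-positive cells were deeper, with a median of 6591 against 2883 UMIs. Gzmb UMIs were found in 28 members, and of these 89.3% held Prf1, 75% Ccl5 and 53.6% Havcr2, against 53.4%, 38.8% and 22.3% of the 103 members without Gzmb. The Gzmb-positive members were also deeper, with 6097 against 3148 UMIs, and the part of depth in these shares was not tested. Gzmb was found in 24.4% of Crtam-positive and 19.8% of Crtam-negative members.

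The sequences before the start sites of Xcl1, which chose the cells, and Gzmb, which differed most from other CD8 T cells, are shown so that the letters can be seen beside the values. Each runs 5′ to 3′ on the gene's own strand, which is the minus strand for both, over the 250 bases before the RefSeq start site in GRCm38.p6, at chr1:164935523-164935772 for Xcl1 and chr14:56262335-56262584 for Gzmb. Capitals mark matches on either strand to GGAAA, the core of sites for NFAT, a transcription factor of T cell receptor signalling, or to TGANTCA, the site of the factor AP-1.
Xcl1: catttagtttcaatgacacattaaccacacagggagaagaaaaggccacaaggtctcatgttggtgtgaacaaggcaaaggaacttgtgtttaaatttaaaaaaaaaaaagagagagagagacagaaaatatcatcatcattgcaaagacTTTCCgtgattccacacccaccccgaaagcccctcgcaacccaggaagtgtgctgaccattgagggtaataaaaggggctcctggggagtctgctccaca
Gzmb: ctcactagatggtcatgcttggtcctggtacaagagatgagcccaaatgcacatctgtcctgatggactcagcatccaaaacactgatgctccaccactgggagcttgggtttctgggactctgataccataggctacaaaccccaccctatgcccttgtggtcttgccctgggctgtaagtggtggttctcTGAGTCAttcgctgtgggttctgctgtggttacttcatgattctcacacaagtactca
The Xcl1 stretch held 1 match to GGAAA, on the opposite strand and so read as TTTCC, and 0 to TGANTCA. The Gzmb stretch held 1 match to TGANTCA and 0 to GGAAA. Of 32851 mouse stretches of the same length, 55.6% held GGAAA and 6.75% held TGANTCA. A match is a description of the letters and not a binding site, and promoter activity was not measured in these cells.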

How the data were processed

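Tumour cells of 4 labelled groups were profiled with the DNBelab C single-cell kit. Per the labels' protocols, valid cells were chosen with barcodeRanks of DropletUtils and UMIs were counted with PISA. Per the submitters' processing notes, STAR 2.7.2b was used, and the notes name the builds GRCh38 and mm10 with no role, so no coordinates were taken from the files. The deposited table, 2000 genes by 53528 cells, holds values on the natural log scale, and the steps by which the authors pooled the cells are not given in the sources used here. All 53528 columns are tied to no sample, so the table was treated as 1 pooled sample with 6 sets.

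The members and the gene lists were chosen with earlier results of these data known. For each gene the mean deposited value of the members was compared within set with that of other and of matched CD8 T cells. A gene was counted when the difference was at least 0.25 in 1 direction in all sets, leaving out 17 genes used by the rule. Named genes were the 15 with the largest median differences in each direction, the genes of the lists and the markers. Fgl2, Emb, Jaml, Cd83, Gpr183 and Il18rap were named after their values were seen where that rule did not hold them. In set 1, UMI totals were recovered for 100% of cells, and 100% of nonzero values were then whole within 0.01. The genes of the table held 15.0% of the UMIs of set 1. CPM values (UMIs per 1000000) were set against exact Poisson intervals, and shares of cells against Clopper-Pearson intervals, both at 95%. Shares were also computed with cells thinned to 1000 UMIs. Doublets were called in set 1 with Scrublet in scanpy 1.11.5 (expected rate 6%), and not in the other sets. The UMI recovery and the counting were tested on simulated data. Scripts used Python 3.11.15, numpy 2.4.6, scipy 1.17.1 and pandas 2.3.3. Alternatives changed the thresholds, the comparison cells, the scale and the sets used.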

Additional observations from a re-analysis of the deposited data

How the results depend on the processing

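The share of CD8 T cells that were Xcl1-high, 7.63%, was 9.47% with an Xcl1 threshold of 1, 5.36% with a threshold of 2 and 11.0% of the CD8 T cells within the cycling and granzyme limits, and 7.06% to 8.43% when each set was left out in turn. The number of higher genes, 3, was 0 at a difference of 0.5 and 3 or 4 without each set in turn. Of the 3, 2 were counted at an Xcl1 threshold of 2, 2 when set 1 members needed at least 2 Xcl1 UMIs (an alternative added after seeing the data), 2 against matched cells and 1 when the share of cells above 0.5 had to differ by 10 percentage points. The number of lower genes, 8, was 4 against matched cells (3 of the 8), 2 at a difference of 0.5, 34 under that criterion on shares (6 of the 8), and 8 to 11 without each set in turn. Numbers of higher and lower genes cannot fall when a set is left out, because a gene had to pass in every set. At Xcl1 thresholds of 1 and 2, 7 of the 8 were counted. The log2 ratio of UMIs past 0.5 in set 1 counted 344 higher and 541 lower genes with a pseudocount of 1 CPM, 114 and 181 with 10 CPM, and 317 and 718 after thinning to 1000 UMIs. It uses 1 set and no limit in the others by construction, and it held all 3 higher and all 8 lower genes. Among cycling cells, a comparison added after seeing the data, 0 genes were higher and 3 lower by 0.25. The median differences of Top2a (0.022), Birc5 (0.0092) and Stmn1 (0.094) changed sign against matched cells, which share the cycling limit. There were 132 median differences, over 11 genes and 12 settings. Of these, 115 stayed between the lowest and highest set difference of the main comparison, 14 fell outside, and those 3 changed sign. In the 6 settings that left out a set, the median stays in that range by construction, so these settings show nothing about stability. Leaving out called doublets left 3 and 8. A filter for genes with a deposited value above 0 in 5% of CD8 T cells also left 3 and 8. After the unrecorded step nearly every gene has such values, so that filter could remove little. No paired analysis was possible because the cells carry no replicate number tied to a group. Few UMIs limit genes such as Lta, Csf2 and Egr3, and counts exist for set 1 only.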

Other observations

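Some genes outside the fixed lists were also higher in the members than in other or in matched CD8 T cells. Of the higher genes named here, only Il18r1 met the size limit for counted genes in all 6 sets, and only against matched cells. Il18rap, Emb, Jaml and Cd83 met it in neither comparison. Il18r1, a chain of the receptor for interleukin 18, was 0.91 to 1.10 in the members and 0.64 to 0.73 in other CD8 T cells, and its set 1 ratio to matched cells was 1.69 (1.43 to 2.00). The partner chain Il18rap was higher than in matched cells in all 6 sets, with a median difference of 0.17. Emb, which codes for the membrane glycoprotein embigin, was 0.46 to 0.67 in the members and 0.21 to 0.27 in the others. Jaml, a junctional adhesion receptor of T cells, was 0.79 to 1.00 and 0.53 to 0.68, and Cd83, an activation marker, was 0.18 to 0.26 and 0.03 to 0.07. None of these ranges of members and other CD8 T cells overlapped, but the share of all genes without overlap was not counted.

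On the lower side, Fgl2, which codes for a secreted fibrinogen-like protein, was 0.09 to 0.32 in the members and 0.41 to 0.55 in the others, and its set 1 ratio to matched cells was 0.34 (0.24 to 0.48). Of the 5 gamma delta T cell markers measured, 1 was lower and 0 higher than in matched cells in all 6 sets, beside 7.61% and 7.56% of all genes. The gene was Tcrg-C2, with a median difference of -0.18, while the median over the 5 markers was 9.955e-05.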
